A study of Mus musculus with 3 samples.

Results

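Ccl3, Ccl4 and Ccl5, 3 genes for CC chemokines, and Ccr1, a gene for a receptor that binds Ccl3 and Ccl5, were followed through the leukocytes of a mouse glioblastoma (GBM) model. They were chosen by name and make up 4 of the 50262 genes in the deposited table. Other receptors of these ligands were not analysed here. The data were inDrop droplet counts of unique molecular identifiers (UMIs) from 3 tumor samples, early, medium and late (labelled large), each sorted into CD45+ and CD45- cells and run as several libraries over 3 sequencing runs. All tumors shared 1 genotype, a conditional human EGFR transgene on a Cdkn2a-/- background with a conditional luciferase reporter, and were started in the brains of adult mice of both sexes by injection of a Cre lentivirus, so the cells that took up the virus expressed EGFR while Cdkn2a was absent from every cell, leukocytes included. The mice were of mixed genetic background and received no treatment in these samples. The early sample was a pool of animals per the study's methods. Each stage has 1 tumor sample, and normal brain was not analysed here.

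CC chemokines are small secreted proteins that draw leukocytes along a gradient through G protein-coupled receptors. Ccl3 and Ccl4 (also called MIP-1alpha and MIP-1beta) are neighbouring genes that activated myeloid cells switch on rapidly and that act on monocytes and lymphocytes. Ccl5 (RANTES) is typical of cytotoxic lymphocytes and of mature dendritic cells, and Ccr1 is carried mainly by neutrophils, monocytes and macrophages.

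On GRCm38 the annotation placed the ligands within one stretch of chromosome 11. Ccl5 (ENSMUSG00000035042) spans bases 83525778 to 83530518 on the minus strand, Ccl3 (ENSMUSG00000000982) spans 83647844 to 83649355 on the minus strand, and Ccl4 (ENSMUSG00000018930) spans 83662584 to 83664683 on the plus strand. Ccr1 (ENSMUSG00000025804) lies on chromosome 9 at 123962124 to 123968692, on the minus strand. Ccl3 and Ccl4 transcripts shared no stretch of 31 bases with another gene, whereas 5 of 928 such stretches of Ccl5 and 18 of 2803 of Ccr1 were shared, the latter with Ccr1l1 and Ccr3, so a small part of their counts could belong to those genes.

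The 250 bases before the start site are shown for the 2 of 4 genes matched in the RefSeq promoter table (GRCm38.p6), to set a ligand gene beside the receptor gene. Capitals mark letters that match one of 4 motifs, which were picked after these sequences had been seen. The stretches are chr11:83649379-83649628 for Ccl3 and chr9:123968693-123968942 for Ccr1, both on the minus strand and written in the direction of transcription.
Ccl3: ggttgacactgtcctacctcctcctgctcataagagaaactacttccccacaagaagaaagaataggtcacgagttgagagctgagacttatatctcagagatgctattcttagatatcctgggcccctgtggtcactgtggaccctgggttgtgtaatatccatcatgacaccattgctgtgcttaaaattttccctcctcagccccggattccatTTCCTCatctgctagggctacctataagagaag
Ccr1: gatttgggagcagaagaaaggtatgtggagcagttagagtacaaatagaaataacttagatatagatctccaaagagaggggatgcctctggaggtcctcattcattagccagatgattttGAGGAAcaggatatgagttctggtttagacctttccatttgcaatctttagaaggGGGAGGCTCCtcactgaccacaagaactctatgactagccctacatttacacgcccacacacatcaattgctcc
Both strands were searched, and positions count from the start site in the RefSeq promoter table. For Ccl3 that start lies upstream of the annotated one given above, at 83649355, so the 2 sources differ. The Ccl3 stretch held 1 match to the PU.1 core GAGGAA, read on the opposite strand from 33 to 28 bases before the start. The Ccr1 stretch held 1 match to the same core, from 129 to 124 bases before the start, and 1 to the kB pattern GGGNNNNNCC, from 74 to 65 bases before it. The kB pattern had no match in the Ccl3 stretch, and the AP-1 pattern TGANTCA and the TATA box TATAAA had none in either. Among 32851 promoter stretches of that length, 23.3% held the PU.1 core, 45.8% the kB pattern, 6.75% the AP-1 pattern and 12.4% the TATA box, and the motifs were not found to overlap here. These matches describe letters only. Ccl4 and Ccl5 are named without a sequence.

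After limits on UMIs, detected genes and mitochondrial share, 17764 cells were kept, 1603 to 5091 per tumor sample and sort, with 5319519 to 10808099 UMIs in each and a median of 1964 to 3078.5 UMIs per cell. A level below is a gene's count per 1000000 UMIs of the cells named (CPM). Of 15830 distinct cell barcodes, 1659 occurred in more than 1 library. Ptprc, the gene for CD45, stood at 239 ± 11.9 CPM (SD, n = 3 tumor samples) in the CD45+ sort and at 10.2 ± 6.22 in the CD45- sort. Cells were clustered without the 4 genes and named from marker lists, so each name below means "like" that type. The 5 larger microglia clusters carried all 10 microglia markers and the T cell cluster all 12 T cell markers. Of the 3 macrophage or monocyte clusters, 1 carried 11 of 14 markers and the others only 4.

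Which sort held the transcripts was asked first. All 4 genes were higher in the CD45+ sort, by 31.01-fold to 93.9-fold. Taking the samples in the order early, medium, late, here and below, Ccl3, the first of the MIP-1 pair, measured 1007, 520 and 487 CPM in CD45+ against 72.2, 35.1 and 5.57 CPM in CD45- cells. Ccl4 measured 3269, 1992 and 1789 CPM in CD45+ and 300.2, 130 and 18.1 in CD45- cells. The lowest CD45+ value of either gene exceeded the highest CD45- value, and both sorts were highest in the early sample.

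Ccl5, the T cell and dendritic cell chemokine, measured 227, 231 and 82.0 CPM in CD45+ and 1.36, 8.99 and 0.472 in CD45- cells. Ccr1, the receptor, measured 112, 87.3 and 106 CPM in CD45+ and 13.5, 3.66 and 0.472 in CD45- cells. The sorts did not overlap for these genes either, and the late CD45+ cells held the lowest Ccl5 level while Ccr1 stayed within 87.3 to 112. A lower level in a summed sort can come from fewer cells of a type or from less RNA per cell, and a sum cannot tell these apart.

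In edgeR's quasi-likelihood test with the tumor sample as a block and Benjamini-Hochberg adjustment, the log2 difference CD45+ minus CD45- was 4.99 (SE 0.61, adjusted p = 0.000827) for Ccl3 and 4.95 (SE 0.71, adjusted p = 0.00161) for Ccl4. In the same fit it was 6.55 (SE 0.60, adjusted p = 0.000292) for Ccl5 and 5.04 (SE 0.78, adjusted p = 0.00228) for Ccr1. The 4 genes of 4 called higher stand beside 20.3% of the 18510 genes tested. Within each run and stage the CD45+ libraries were higher in 9 of 9 pairs for every one of the 4 genes. These pairs are the same tumor samples split over runs, so they are technical repeats. The share of all genes that were higher in every pair, or did not overlap between the sorts, is not given here. Without TMM factors, 2598 genes were called higher and 6552 lower in place of 3764 and 4753, the median over all genes moved from -0.04 to -0.40, and the 4 genes stayed called. The Ccr1 call was lost when the medium tumor sample was left out (adjusted p = 0.0975) and when every gene with at least 1 count was tested (adjusted p = 0.0988) with that test.

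**Figure D1:**
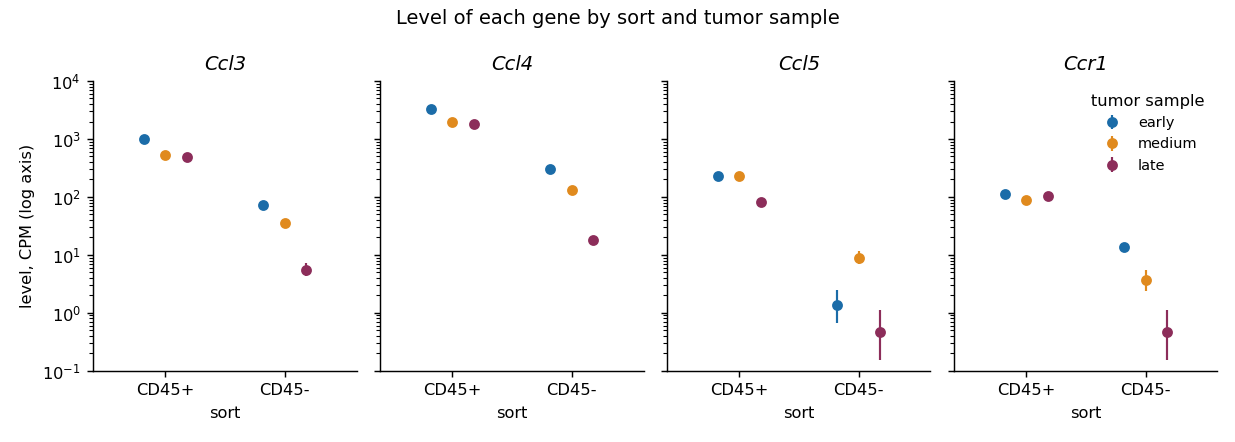
Level of Ccl3, Ccl4, Ccl5 and Ccr1 in CPM (log axis) in the CD45+ and CD45- cells of the early, medium and late tumor sample, with bars for the 95% counting interval of each level. Every CD45+ point lies above every CD45- point of the same gene, for example 487 to 1007 against 5.57 to 72.2 for Ccl3.

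Most of the CD45- signal lay in few cells. In that sort, 328 microglia, 4.97% of its cells, held 68.6% of its Ccl3 UMIs, 68.4% of its Ccl4 UMIs and 66.7% of its Ccr1 UMIs. CD45- Ccl5 was sparse, with 52 of 75 UMIs in the glioma or oligodendrocyte progenitor class and 31 of those in 1 cell. Oligodendrocytes, which should lack these genes, set the background after each cell was thinned to 1000 UMIs. There 0.224% of 2679 CD45- oligodendrocytes had a Ccl3 UMI and 0.261% a Ccl4 UMI, while 0 of 2679 had a Ccl5 UMI, which allows a share of up to 0.112%. Among the 67 oligodendrocytes that came through the CD45+ sort the shares were 2.99%, 8.96% and 2.99%, and these are the background for the CD45+ classes. Microglia in the CD45+ sort stood at 35.9% for Ccl3, 65.0% for Ccl4, 1.02% for Ccl5 and 5.59% for Ccr1 over 5401 thinned cells, and their Ccl5 share is no higher than that background. Without thinning, these microglia shares were 44.2%, 70.2%, 1.61% and 8.57%. Intervals and limits cover counting error only.

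The other CC chemokine genes and the pathway around them separated along the same line. Of 13 other CC ligand genes tested, 10 were higher in CD45+ cells and 1 lower (25.7% of all genes tested were lower), with a median log2 difference of 5.39 against -0.04 over all genes tested. Ccl1 (9.23) and Ccl8 (9.004) led the rise and Ccl25 (-1.31), a chemokine of thymus and gut, was lower. Of 6 other CC receptor and scavenger genes tested 5 were higher, led by Ccr7 (7.21), beside 20.3% of all genes tested. The other, Ackr1 (-2.59), was lower in CD45+ cells. Of 24 genes of chemokine receptor signalling, 17 were higher and none lower, among them Rgs18 (9.07) and Rgs1 (6.14), which switch off G proteins. All 17 inflammatory and NF-kB genes tested were higher, as were 15 of 18 immediate-early genes and 12 of 13 cytotoxic lymphocyte genes.

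Which CD45+ classes carried the transcripts was asked next. Microglia and macrophages carried Ccl3 and Ccl4. T cells, natural killer cells and 1 small dendritic subcluster, mostly of medium cells, carried Ccl5. Macrophages or monocytes supplied part of the Ccl5 UMIs in the medium sample. Ccr1 had its highest levels in neutrophils and border or perivascular macrophages, while its UMIs were spread over several classes and a different class held most in each sample. Microglia, the resident macrophages of the brain, supplied 67.4% of the CD45+ Ccl3 UMIs and 65.3% of the Ccl4 UMIs but 3.06% of the Ccl5 UMIs over the 3 samples together. In the medium sample macrophages or monocytes supplied more than microglia, with 39.6% against 36.6% of Ccl3 and 42.0% against 32.2% of Ccl4, whereas microglia supplied 81.9% and 82.7% in the early and 67.0% and 68.2% in the late one. T cells supplied 60.0% of the Ccl5 UMIs, macrophages or monocytes 15.5%, dendritic cells 10.1% and natural killer cells 5.94%. By sample the T cell share of Ccl5 was 78.9%, 34.9% and 83.3% and that of macrophages or monocytes 4.20%, 30.3% and 2.98%, while the few natural killer cells supplied 6.36%, 5.16% and 7.57%. The medium macrophages or monocytes made up 36.2% of all UMIs of that sample. Its 10 CD45+ oligodendrocytes held 0.311% of Ccl5 in 0.206% of all UMIs. By summed level the medium macrophages were not above them, but 10 cells are too few to set a background. A Ccl5 UMI was found in 215 of the 1554 medium macrophages or monocytes. Over the 3 samples together Ccr1 UMIs were spread, with 36.5% in microglia, 22.7% in macrophages or monocytes, 22.6% in neutrophils and 11.6% in border or perivascular macrophages. By sample microglia held 55.3%, 10.5% and 35.4% and macrophages or monocytes 8.40%, 29.4% and 43.2%. Neutrophils held 15.8%, 39.5% and 11.6% and border or perivascular macrophages 15.2%, 11.7% and 3.91%.

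In microglia, Ccl3 measured 1117, 1391 and 898 CPM and Ccl4 3663, 4675 and 3361 (from 3874, 710 and 957 cells). In macrophages or monocytes, named from markers such as Ccr2, Ly6c2 and Arg1, Ccl3 measured 961, 568 and 241 and Ccl4 3124, 2308 and 768 CPM (288, 1554 and 666 cells). A cluster led by Cxcl9 and MHC class II genes, which carried only 4 of the class markers, made up 1262 of these cells. P2ry12, a microglia marker, was found in 63.6%, 23.9% and 60.0% of that cluster. The part of microglia RNA in the Ccl3 and Ccl4 of this class was not tested. In border or perivascular macrophages, marked by Cd163, Mrc1 and Pf4, Ccl3 measured 1244, 785 and 607 and Ccl4 2833, 2695 and 1801 CPM (249, 126 and 66 cells). Microglia overlapped both macrophage classes for Ccl3 and neither for Ccl4, and they exceeded macrophages or monocytes in each of the 3 samples for both genes. With microglia, border macrophages, macrophages, neutrophils and T cells ordered by mean level, each class overlapped the next for Ccl3, and for Ccl4 each did but microglia and border macrophages.

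In the class fit (edgeR's quasi-likelihood test, tumor sample as a block, Benjamini-Hochberg adjustment over 9794 genes) the macrophage minus microglia difference was -1.09 for Ccl3 (SE 0.54, adjusted p = 0.215) and -0.94 for Ccl4 (SE 0.59, adjusted p = 0.351). It was 2.86 for Ccl5 (SE 1.05, adjusted p = 0.0971) and 0.46 for Ccr1 (SE 0.34, adjusted p = 0.401). None of the 4 was called, beside 15.7% of all genes tested, 10.6% of them higher and 5.15% lower. The Ccl3 and Ccl4 differences are near 2-fold, and on simulated counts only 21% of 2-fold changes were called in this comparison. When each cell was given its class from its own markers, without clusters, all 4 were called in the same test, at -1.48 (adjusted p = 0.0229), -1.34 (adjusted p = 0.0196), 3.16 (adjusted p = 0.0378) and 0.90 (adjusted p = 0.0182). Without the early tumor sample Ccl3 was also called, at -1.46 (adjusted p = 0.0266).

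Among genes of the surrounding program, macrophages were lower than microglia for 10 of 18 immediate-early genes and higher for none, with a median log2 difference of -0.93 against -0.01 over all genes tested. Egr1 (-2.08) and Jun (-1.91), transcription factors made within minutes of a stimulus, fell most. Of 17 inflammatory and NF-kB genes, 5 were lower and 1 higher, with Gpr84 (-2.03) and Tnf (-1.89) lowest and Ptgs2 (1.70), the inducible cyclooxygenase, higher. Tissue was dissociated at 37 °C, and the summed level of the 18 immediate-early genes was 22417, 20411 and 28624 CPM in microglia and 15983, 9444 and 10465 in macrophages. Its part in the Ccl3 and Ccl4 levels was not tested. Other CC ligand genes went the other way, with 5 of 10 higher in macrophages, led by Ccl17 (6.14) and Ccl8 (3.19), and none lower.

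**Figure D2:**
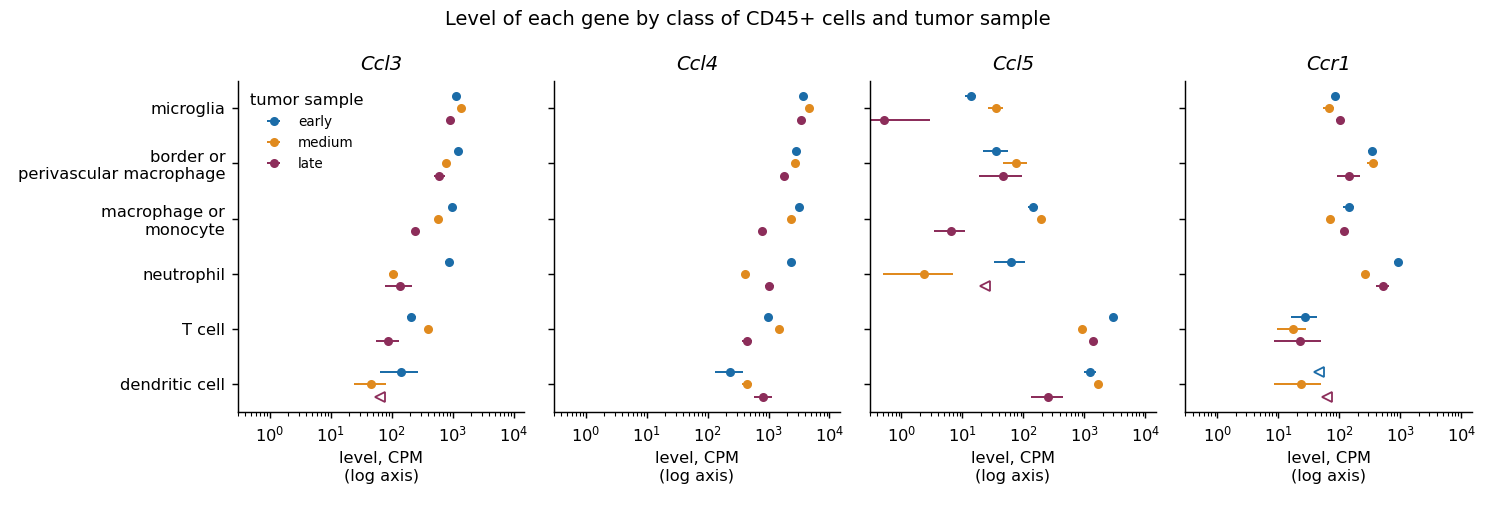
Level of each gene in CPM (log axis) by class of CD45+ cells and tumor sample. Bars are 95% counting intervals, and an open triangle is the level of 3 UMIs where none was found; of the 6 classes plotted, microglia have the highest mean of Ccl3 and Ccl4, T cells that of Ccl5 and neutrophils that of Ccr1.

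Ccr1 was ordered differently from the ligands. Neutrophils, defined by S100a8, S100a9 and Ly6g, held Ccr1 at 910, 265 and 514 CPM. Border or perivascular macrophages held 349, 353 and 147, macrophages or monocytes 143, 70.9 and 120, and microglia 84.1, 66.8 and 103. T cells held 27.3, 17.2 and 22.9. The lowest neutrophil value stood above every macrophage, microglia and T cell value, and the lowest border macrophage value, 147, stood just above the highest macrophage value, 143.

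Neutrophil minus macrophage was 2.18 for Ccr1 (SE 0.35, adjusted p = 7.18e-05, edgeR's quasi-likelihood test with Benjamini-Hochberg adjustment), a 4.52-fold difference, and Ccr1 was the 1 gene of the 4 called, beside 22.6% of all genes tested in either direction, 10.4% higher and 12.2% lower. Border or perivascular macrophage minus microglia was 1.85 for Ccr1 (SE 0.36, adjusted p = 0.000747) in that fit, a 3.60-fold difference, again the 1 gene of 4 called, beside 12.3% of all genes in either direction, 7.34% higher and 5.0% lower. Ccr2, the monocyte receptor, ran opposite to Ccr1 in neutrophils, at -2.38 against macrophages, while in border macrophages it was higher than in microglia, by 2.42. Ccr2 is among the markers that name macrophages or monocytes, so its difference from neutrophils is in part built into the classes. Border macrophages also held more of 6 of 10 other CC ligand genes than microglia, led by Ccl8 (8.02) and Ccl7 (7.47), with none lower. Ccl3 and Ccl4 themselves were -0.45 (SE 0.54) and -0.66 (SE 0.59) in that comparison, neither called.

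Neutrophils showed Ccl3 at 862, 107 and 134 and Ccl4 at 2317, 414 and 1036 CPM. The early neutrophils stood highest for both. Without 1 early library of 26 cells, at 1950 CPM, the early Ccl3 level was 518, still the highest, and the late level joined a library of 21 cells at 39.8 CPM and few others. That class joined a cluster led by mature granule genes and a small cluster led by Elane and Mpo, genes of granulocyte precursors. In the early sample, 36 cells of the small cluster held 4547 CPM of Ccl4 and 3449 CPM of P2ry12, the latter a defining microglia gene found in 88.9% of them, with Mpo at 42.2 and S100a9 at 0. Its 84 medium cells held 3465 CPM of Mpo and 91.6 CPM of P2ry12, so the early cells of that cluster go against its name. Without that cluster neutrophil minus macrophage was -2.07 for Ccl3 (adjusted p = 0.00802) and 2.82 for Ccr1 (adjusted p = 4.53e-08) in edgeR's quasi-likelihood test, where with it Ccl3 was -0.97 (adjusted p = 0.274). Without the early tumor sample Ccl3 was called as well, at -1.83 (adjusted p = 0.0098) in that test. In the mature cluster Ccr1 measured 1264, 398 and 924 CPM beside P2ry12 at 885, 82.3 and 128, and the part of microglia RNA in its Ccl4 (1185, 430 and 1166) was not tested.

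Ccl5 was high in T and natural killer cells. T cells held Ccl5 at 2935, 899 and 1385 CPM, macrophages or monocytes 144, 194 and 6.40, and microglia 13.7, 35.3 and 0.518, the last being 1 UMI in 957 cells. The late T cell value joined a library of 51 cells at 2218 CPM and one of 60 cells at 787 CPM, and without them it was 766 and 2140 CPM in turn. T cell values exceeded all macrophage and microglia values. T cell minus microglia was 7.45 for Ccl5 (SE 1.22, adjusted p = 0.000738), -2.42 for Ccl3 (SE 0.58, adjusted p = 0.00605), -2.11 for Ccl4 (SE 0.61, adjusted p = 0.0207) and -1.96 for Ccr1 (SE 0.42, adjusted p = 0.000743) in the class fit with edgeR. Thus 1 gene of 4 was called higher and 3 lower, beside 34.8% of all genes in either direction, 18.5% higher and 16.3% lower. In the same test the Ccl3 call was lost without the late sample (adjusted p = 0.0635) or without the block (adjusted p = 0.0531), and the Ccl4 call without the early (adjusted p = 0.0945) or the late sample (adjusted p = 0.0741).

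All 11 cytotoxic lymphocyte genes tested were higher in T cells than in microglia, with a median of 7.998, led by Gzmb (10.09), a protease of killer granules, and Ifng (8.77), while 16 of 18 immediate-early genes were lower. The cytotoxic list includes Cd8a and Cd8b1, which are also T cell markers, so its rise is in part built into the classes. Of 10 other CC ligand genes 1 was higher, Ccl1 (9.62), and 2 were lower, among them Ccl22 (-3.11). Of 5 other CC receptor and scavenger genes 3 were higher, among them Ccr7 (4.35), the lymph node homing receptor, and 2 lower, Ccr6 (-1.96) and Ccrl2 (-1.95). The ligand counts are near the share of all genes, 18.5% higher and 16.3% lower, and nothing is read from them. T cells with a CD8 UMI and no Cd4 UMI held 4381, 1604 and 9201 CPM of Ccl5 (134, 128 and 18 cells). Those with a Cd4 UMI and no CD8 UMI held 768, 346 and 81.2 (36, 76 and 34 cells), below the CD8 cells in each sample. These splits rest on single UMIs and were not tested, and 373 of 812 T cells had neither.

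Subclusters of the T cell cluster separated Ccl5 from Ccl3 and Ccl4. The largest, 361 cells led by Gimap3 and by Ccl5 itself, held 3020 CPM of Ccl5, 327 of Ccl4 and 75.8 of Ccl3, with P2ry12 at 45.2. A second, 269 cells led by Apoe and C1qa, held 1124 CPM of Ccl5, 2509 of Ccl4 and 601 of Ccl3, with P2ry12 at 886 and C1qa, a complement gene of microglia and macrophages, at 4621. Its leading genes, C1qa, C1qb and C1qc among them, go against the T cell name. Leading genes were ranked within the T cell class, so T cell markers that the class shares could not lead. Cd3e, a defining T cell gene, measured 78.6 CPM there and 174 in the first. The T cell values above include these 269 of 812 cells, and without them Ccl5 measured 3609, 1098.5 and 1133 CPM, Ccl4 360.0, 427 and 175 and Ccl3 18.5, 199.5 and 38.9, with 45.8% of the CD45+ Ccl5 UMIs. P2ry12 was found in 55.4% of the second set and in 4.99% of the first, and the part of myeloid RNA in the Ccl3 and Ccl4 of the second was not tested. A Ccl4 UMI was found in 16.1% of the first and 68.4% of the second, but a Ccl5 UMI in 47.1% and 42.0%. By sample the Ccl5 shares were 57.6%, 38.6% and 30.0% in the first and 64.1%, 28.7% and 45.0% in the second. Without the second subcluster the T cell minus microglia difference widened to -3.84 for Ccl3 (adjusted p = 0.00424) and -3.75 for Ccl4 (adjusted p = 0.000834) and stayed at 7.44 for Ccl5 (adjusted p = 0.000438) in edgeR's quasi-likelihood test. A cycling subcluster of 145 cells held 1079 CPM of Ccl5, and 37 cells led by Il13 and Gata3, genes of type 2 lymphocytes, held 48.1, below the 103 CPM of the 68 CD45+ oligodendrocytes (15 UMIs in 2 cells). Of those 37 cells, 33 came from the late sample and held no Ccl5 UMI.

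The 28 natural killer cells, too few for a fit, held 5903 CPM of Ccl5 over the 3 samples together. Of their medium UMIs 82 of 116 came from 1 cell, and of their late UMIs 30 of 33. Among dendritic cells, 27 cells led by Fscn1 and Ccl22, genes of mature migratory dendritic cells, held 8123 CPM of Ccl5, with a UMI in 85.2% of them. Ccl5 is among the genes that lead this set. Of the 27 cells, 24 came from the medium sample, at 7513 CPM, so the value is in effect that of 1 tumor sample. The 123 dendritic cells led by Xcr1 and Naaa held 142, with a UMI in 5.69%. Per sample, dendritic cells held 1250, 1657 and 254 CPM of Ccl5, but 74 of the 80 early UMIs came from 1 cell. In early macrophages, likewise, 46 of 103 Ccl5 UMIs came from 1 cell.

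**Figure D3:**
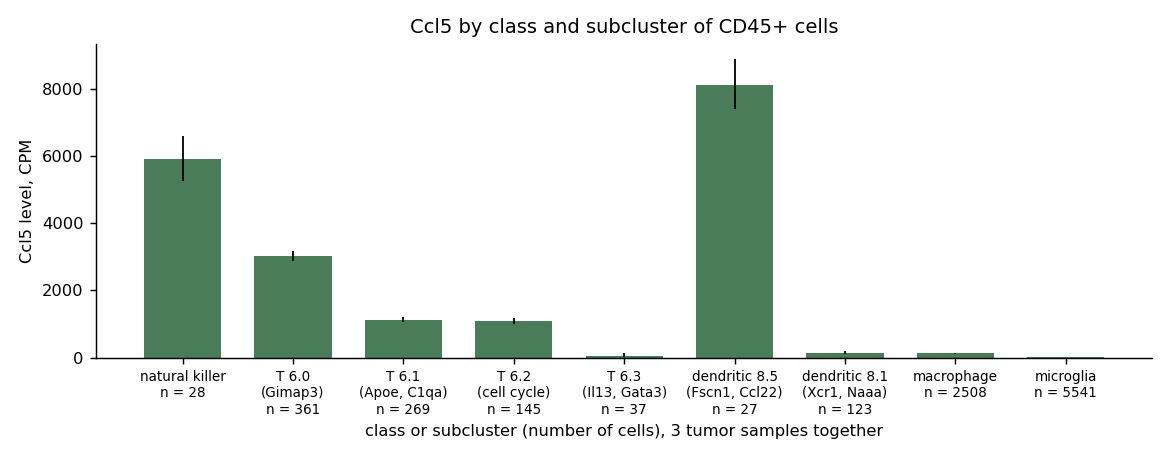
Ccl5 level in CPM in natural killer cells, subclusters of T and dendritic cells, macrophages and microglia of the CD45+ sort, with the 3 tumor samples together, the number of cells under each bar and 95% counting intervals. Ccl5 reaches 8123 in the Fscn1 dendritic subcluster, with 24 of its 27 cells from the medium sample, and 3020 in the first T cell subcluster, against 142 in the Xcr1 dendritic subcluster.

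How the levels stood across stages was read without a test, since each stage is 1 tumor sample. In the whole CD45+ sort Ccl3 went from 1007 to 520 and 487 CPM, while microglia went from 76.1% to 17.8% and 45.7% of the cells. With each class kept at its early share of UMIs, Ccl3 would stand at 1007, 1142 and 731 and Ccl4 at 3269, 3894 and 2727. Held at that mix, Ccl5 would stand at 227, 122 and 102 and Ccr1 at 112, 78.6 and 104. The medium sample thus lay below the early one for Ccl3 and Ccl4 as sorted and above it with the early mix.

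Within microglia, the log2 ratio of medium over early was 0.32 for Ccl3 (95% counting interval 0.24 to 0.39) and 0.35 for Ccl4 (0.31 to 0.39). Late over early was -0.31 for Ccl3 and -0.12 for Ccl4. Single libraries spread more widely than that interval, from 3270 to 5692 CPM of Ccl4 in early and from 4195 to 5140 in medium microglia, so the samples overlapped library by library. For Ccl4 that overlap rests on 1 early library of 87 cells, at 5692 CPM, and the other early libraries, at 3270, 3709 and 3796, lay below every medium one. For Ccl3 it does not, since an early library of 1134 cells, at 1247 CPM, stood above the lowest medium one, at 1201. Within run 2 and within run 3 the medium over early ratio of Ccl4 was 0.36 and 0.38. Ccr1 in microglia was -0.33 in the medium over the early sample, and -1.14 without 1 of the medium libraries.

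Within macrophages or monocytes the later samples were lower. Medium over early was -0.76 for Ccl3 and -0.44 for Ccl4, and late over early was -1.997 (-2.17 to -1.83) for Ccl3 and -2.02 (-2.12 to -1.93) for Ccl4. Macrophage libraries ranged between 2779 and 3379 CPM of Ccl4 for early tumor, 1921 and 2525 for medium, and 663 and 1168 for late, with no overlap. For Ccl3 they lay between 890 and 1022 CPM for early, 511 and 602 for medium, and 163 and 535 for late, and medium and late overlapped. In run 3, the 1 run with enough macrophages at each stage, the late over early ratio was -2.55 for Ccl3 and -2.12 for Ccl4. Over the class there were 5.09, 7.30 and 3.63 Ccl4 UMIs per P2ry12 UMI, and the part of microglia RNA in these stage ratios was not tested. Ccr1 in macrophages was -1.02 in the medium over the early sample (interval -1.35 to -0.66), while late over early lay within counting error (-0.26, interval -0.60 to 0.09). Ccl5 in macrophages was 0.42 in the medium over the early sample, but 1.22 without 1 of the early libraries, 0.10 without another and -0.33 when classes were given cell by cell, so its direction was not settled.

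Macrophages fell into 3 clusters whose shares differed between stages. Cluster 4, led by Cxcl9 and MHC class II genes, had 121, 1121 and 20 cells, cluster 7, led by Arg1 and Spp1, had 62, 143 and 587, and cluster 8, led by Ccr2, had 105, 290 and 59. Cluster 4 was the largest in the early and medium samples and cluster 7 in the late one. Within cluster 7, Ccl3 measured 1243, 369 and 231 and Ccl4 3311, 1366 and 682 CPM, while P2ry12 there was 209, 199 and 190. Within cluster 4, Ccl4 measured 4542, 2812 and 2414 with P2ry12 at 1283, 388 and 1254, and within cluster 8 it measured 1600, 974 and 1187. The early sample was highest within each macrophage cluster, and the late sample lowest in clusters 4 and 7 but not in cluster 8. Among microglia, Tnf and Gpr84 led cluster 0 and were also among the leading genes of clusters 13 and 19. Cluster 0 held 4368, 6173 and 3892 CPM of Ccl4 and was above clusters 2, 3, 13 and 19 at every stage. Medium exceeded early for both Ccl3 and Ccl4 in clusters 0, 2, 3 and 19 but not in cluster 13. There Ccl3 measured 1044, 968 and 891 and Ccl4 3664, 3040 and 3101. In that cluster P2ry12 measured 3374 CPM in early and 1489 in medium cells, Tmem119, another microglia gene, 1261 and 709, C1qa 5138 and 7151 and Ccl5 6.45 and 117, and their part in the exception was not tested.

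**Figure D4:**
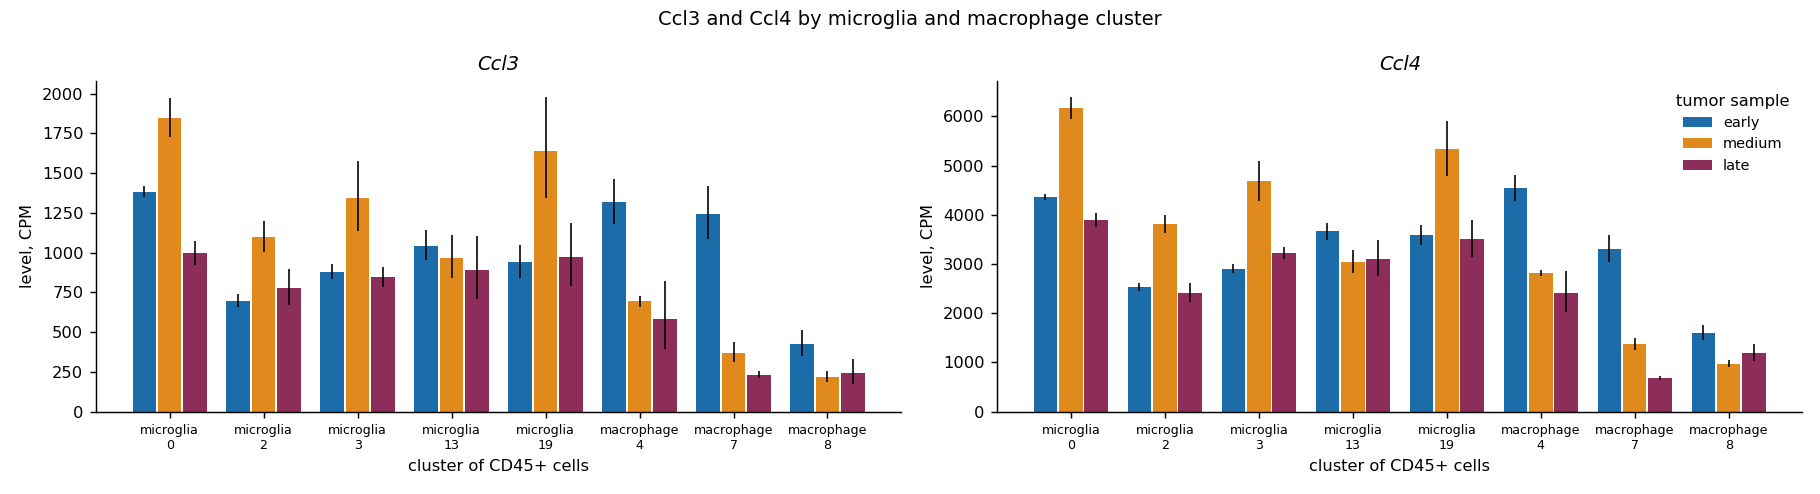
Ccl3 and Ccl4 levels in CPM in 5 microglia clusters (0, 2, 3, 13 and 19) and 3 macrophage clusters (4, 7 and 8) of CD45+ cells by tumor sample, with 95% counting intervals as bars. The medium sample is highest in microglia clusters 0, 2, 3 and 19, and the early sample in microglia cluster 13 and in the macrophage clusters, as in cluster 7 where Ccl4 was 3311, 1366 and 682.

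The ligands were then related cell by cell on cells thinned to 1000 UMIs, as a description over cells that share libraries and depth. In 5401 microglia 35.9% had Ccl3, 65.0% had Ccl4 and 31.5% had both, where the product of the shares is 23.4%. Ccl4 was found in 87.8% of microglia with Ccl3 and in 52.3% of those without. Pearson's r of the log-scaled values was 0.475, and from 0.403 to 0.687 within single libraries and 0.450 to 0.537 within clusters. In early microglia the mean number of Ccl4 UMIs was 1.99 in cells with no Ccl3 UMI, 4.16 with 1, 6.52 with 2 to 4 and 10.9 with 5 or more.

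The pair was also read in the other classes. In 2500 macrophages r was 0.493, with both genes in 18.2% of cells against a product of 10.1%, from 0.347 to 0.557 within libraries and from 0.187 to 0.518 within 11 subclusters, and in 426 border or perivascular macrophages it was 0.432. In 783 T cells r was 0.525, with both genes in 9.58% against a product of 3.14%, and it was 0.319 to 0.488 within 3 T cell subclusters. In the largest T cell subcluster 2.39% of thinned cells had Ccl3 and 11.9% had Ccl4, against 2.99% and 8.96% in the CD45+ oligodendrocytes, values within the counting intervals of that background. The shares were 25.7% and 57.5% in the subcluster with C1qa at 4621, and the part of myeloid RNA in the T cell pairing was not tested. Without that subcluster 515 cells gave r of 0.395 for Ccl3 with Ccl4, resting on 13 cells with both, and 0.151 for Ccl4 with Ccl5. Within T cell libraries r ran from -0.06 to 0.68. Ccl5 in T cells had r of -0.0034 to Ccl3 and 0.041 to Ccl4, and within the 3 subclusters r with Ccl4 was 0.207 in the largest, -0.0194 in the C1qa one and 0.0705 in the cycling one. Within T cell libraries r of Ccl5 ran from -0.12 to 0.14 with Ccl3 and from -0.19 to 0.36 with Ccl4, and both late libraries, at 0.329 and 0.360, stood highest with Ccl4. Ccr1 showed no relation to Ccl3 (r = 0.00015) or Ccl4 (r = 0.0017) in microglia, although at 5.59% of cells such a value is coarse.

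**Figure D5:**
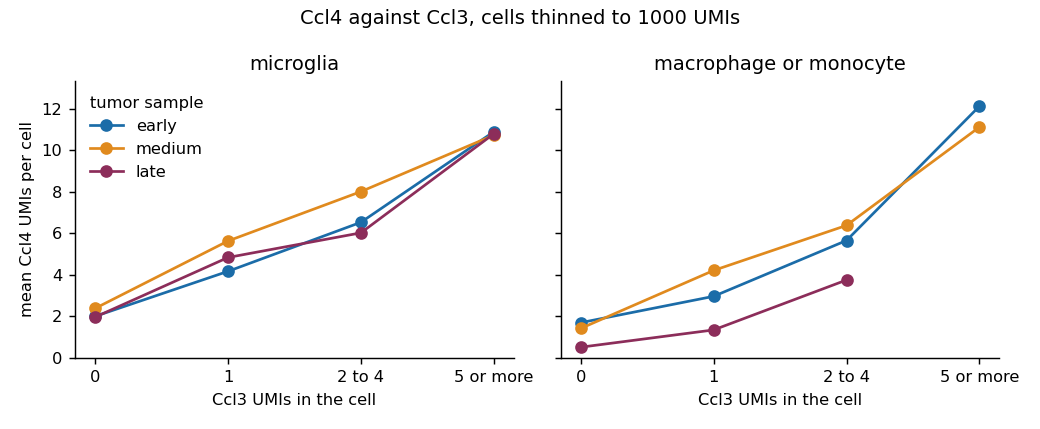
Mean number of Ccl4 UMIs per cell against the number of Ccl3 UMIs in the same cell, for microglia and macrophages or monocytes thinned to 1000 UMIs, with 1 line per tumor sample and points for bins of at least 10 cells. The mean climbs with each Ccl3 bin, from 1.99 to 10.9 in early microglia, and late macrophages lie below the other lines.

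Ccl4 was the gene most correlated with Ccl3 over microglia, rank 1 of 2766 genes found in at least 5% of them, followed by Fos (0.198), Junb (0.193), Cd83 (0.186) and Tnf (0.186). Fos and Junb are immediate-early factors of the AP-1 family. Those most correlated with Ccl4 after Ccl3 were Cd83 (0.308), Nr4a1 (0.251), Junb (0.245) and Il1b (0.228). Of 13 inflammatory and NF-kB genes, 7 exceeded r = 0.1 with Ccl3 and 11 with Ccl4, and of 18 immediate-early genes 8 and 11 did, beside 0.904% and 1.95% of all genes. Of 15 genes of chemokine receptor signalling 0 did with either gene, of 8 transcription factors known at CC chemokine promoters 0 and 1 did, and of 3 other CC ligand genes 0 and 1. In macrophages the genes next to Ccl3 after Ccl4 were Sparc (0.223), a microglia marker, Tnf (0.218), Egr1 (0.206) and Cst3 (0.185). For Ccl5 in 810 T and natural killer cells they were Gzmb (0.435), Nkg7 (0.367), Gzma (0.308), AW112010 (0.295) and Ly6c2 (0.267), and 8 of 11 cytotoxic genes exceeded 0.1 beside 3.298% of all genes.

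Over 24 sums of class by tumor sample from 11 classes, which share tumors and classes, the genes nearest to Ccl3 among 7402 were C1qc (0.903), Cebpb, Tcn2, Tlr7 and C1qb, with Ccl4 at rank 44 (0.831). Those nearest to Ccl4 were Ctss (0.914), Ly86, Slc29a3, Serinc3 and Lair1. Those nearest to Ccr1 were Cd33 (0.892), Pla2g7, Plaur, Thbs1 and Fcer1g. Those nearest to Ccl5 were Rpl14-ps1 (0.886), Klrk1, Gm12466, Rps16-ps2 and Gm10132, of which Klrk1 encodes an activating receptor of killer lymphocytes.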

How the data were processed

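Deposited values were raw UMI counts per gene and cell, which the authors made with RapMap in bcbio-nextgen against the mouse GRCm38 transcriptome (Ensembl v.94) plus 3 transgenes, after calling cells against empty droplets. The study states that ambient RNA and doublets were removed, but not whether before this table. Of 20811 cells, 20794 were used; 17 columns of 1 library were not. The sequencing runs, rather than the 23 libraries, are the labelled samples, and sort and stage come from the cell type and tumor stage given for each library in the deposited annotation.

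Cells with under 500 UMIs, under 500 genes or over 20% mitochondrial UMIs were dropped, leaving 17877, and Scrublet called 113 doublets (0.635%), also dropped. Clustering (scanpy 1.11.5, leidenalg 0.10.2; 2000 variable genes, 40 components, resolution 1) left out the 4 genes and the genes of the fixed lists that are no class markers. Of 33 clusters, 5 stayed unnamed. A cluster took a name from at least 3 markers with a 2-fold rise, and this rule and the splitting of mixed clusters were set after the clusters were seen. Names rebuilt in this way can differ from the study's.

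Counts were summed per tumor sample and sort, or class, and fitted with edgeR 4.0.16 (R 4.3.3; TMM, filterByExpr, robust quasi-likelihood, two-sided) with the tumor sample as a block, calls being at an adjusted p under 0.05. Both sorts and all classes of a pair come from the same tumor sample. Deviations from the group means correlated at 0.383, 0.278 and 0.297 between the sorts of the early, medium and late samples. The class fit took classes with at least 20 cells in each tumor sample. The 3 tumor samples are the replicates, so the spread measured includes stage. On simulated counts with 4-fold changes 91% were recovered in the sort fit of 18510 genes and 69% to 95% in the 4 class comparisons of 9794 genes, and with 2-fold changes 31% and 16% to 21%.

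Stage ratios used a prior of 0.5 counts and 95% exact counting intervals, which cover counting error only. The members and gene lists were chosen with earlier results of these data known. Genes named beside the 4 were the 5 with the highest Pearson r and, per list, the 2 with the largest rise or fall. Alternatives were no TMM factors, no filter, no block, DESeq2 1.42.0, each tumor sample or library left out, doublets kept, every deposited cell, classes given cell by cell, and, added after seeing the data, 2 class definitions and levels without each library. One further element of the tumor genotype, common to all groups, is not reported here.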

Additional observations from a re-analysis of the deposited data

Results flagged for a closer look

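The medium over early log2 ratio went in opposite directions in the classes of myeloid cells. For Ccl3 it was 0.32 in microglia and -0.76 in macrophages or monocytes. For Ccl4 it was 0.35 in microglia and -0.44 in macrophages or monocytes. Each stage is 1 tumor sample, and the difference between the classes was not tested. Within each of the 3 macrophage clusters the medium sample was below the early one for both genes. Among the 5 larger microglia clusters it was above the early one in 4 and below it in cluster 13, where Ccl4 was 3664 counts per 1000000 UMIs in the early and 3040 in the medium cells.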

How the results depend on the processing

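Every one of the 4 genes kept its direction in each of the 5 fits under every alternative run. The replicate block is the tumor sample, and without it the Ccl3 difference T cell minus microglia was -2.27 and no longer called, and 300 genes instead of 504 were lower in macrophages than in microglia. When genes down to 1 count entered, Ccr1 in the sorts was 5.01 and no longer called. With classes given cell by cell, macrophage minus microglia became called at -1.48 for Ccl3, -1.34 for Ccl4, 3.16 for Ccl5 and 0.90 for Ccr1, and 879 genes were lower. Without the Mpo cluster of neutrophils, Ccl3 against macrophages was -2.07 and called, and 1926 genes in place of 1194 were lower. The causes were not tested. No natural killer minus T cell fit could be made, with 3 natural killer cells in the late sample.

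Leaving out 1 tumor sample gave 4.11 to 6.26 for Ccr1 in the sorts, -1.46 to -0.76 for Ccl3 in macrophages against microglia, -2.93 to -2.07 for Ccl3 and -2.35 to -1.84 for Ccl4 in T cells against microglia, and -1.83 to -0.31 for Ccl3 in neutrophils against macrophages. It gave 495 to 689 genes higher and 129 to 362 lower in macrophages, 346 to 529 and 260 to 396 in border macrophages, and 522 to 863 and 465 to 984 in neutrophils, each with fewer samples in the fit.

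For the log2 stage ratios in microglia, run 2 alone gave 0.44 for Ccl3 medium over early, -0.18 for Ccl3 late over early and 0.0161 for Ccr1 late over early, and run 3 alone gave 0.79 for Ccl5 and -1.73 for Ccr1 medium over early. Classes given cell by cell gave -0.41 for Ccl3 and -0.30 for Ccl4 late over early in microglia, and the mean over cells gave -0.0752 for Ccl4. In macrophages, classes given cell by cell gave -1.65, -0.70, -0.33 and -0.59 for Ccl3, Ccl4, Ccl5 and Ccr1 medium over early, the Ccl5 direction being reversed, and -1.79 and -1.52 for Ccl3 and Ccl4 late over early. Run 3 alone gave -0.91, -0.59, 0.0895 and -0.64 medium over early, and -2.55, -2.12 and -6.02 for Ccl3, Ccl4 and Ccl5 late over early. The mean over macrophages gave -0.37 for Ccl4 and 0.0733 for Ccl5 medium over early. Leaving out 1 library gave 0.24 to 0.38 for Ccl3 and 0.24 to 0.39 for Ccl4 medium over early, -0.19 to -0.0528 for Ccl4 late over early and -1.14 to -0.0604 for Ccr1 medium over early in microglia. In macrophages it gave -0.51 to -0.37 for Ccl4 and 0.10 to 1.22 for Ccl5 medium over early, and -2.15 to -1.66 for Ccl3, -2.09 to -1.87 for Ccl4 and -5.46 to -3.64 for Ccl5 late over early. Of 18 correlations recomputed over cells, 7 moved beyond their interval, all with more UMIs per cell, as in microglia where Ccl3 and Ccl4 gave 0.545 with all UMIs. Depth limits Ccl5 in microglia, with 1 UMI in the late sample, and the relations of Ccr1 over cells.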

Other observations

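Plasmacytoid dendritic cells, named from Ccr9, Klk1 and Ly6d, held Ccl4 with little Ccl3. Their 58 cells in the CD45+ sort, 44 of them from the medium sample, held 2962 counts per 1000000 UMIs (CPM) for Ccl4 and 143 for Ccl3, a ratio of 20.7 Ccl4 UMIs to 1 Ccl3 UMI. It rests on 18 Ccl3 UMIs, all from the medium sample. That ratio was 3.36 in microglia, 3.75 in macrophages or monocytes, 2.61 in border or perivascular macrophages, 3.42 in neutrophils, 4.02 in T cells and 8.05 in other dendritic cells (21 Ccl3 UMIs). In the largest T cell subcluster it was 4.32, and 22.8 in its early cells alone, where Ccl3 stood at only 12.8 CPM and the ratio is coarse. The count of Ccl4 per P2ry12 UMI was 24.8 in the plasmacytoid cells and 1.14 in microglia, and their largest single cell held 19.6% of the Ccl4 UMIs. Ccl4 was found in 57.9% of 57 thinned plasmacytoid cells and Ccr1 in 12.3%.

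B cells, 221 of them and 193 from the medium sample, held 265 CPM of Ccl4 and 43.4 CPM of Ccl5, beside 178 and 103 CPM in CD45+ oligodendrocytes. Their Ccl5 was not above that background, which is a thin one. It rests on few UMIs in 68 cells, 50 of them from the early sample.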
